A study of Mus musculus with 12 samples.

Results

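The Zfp genes are mouse genes named zinc finger protein with a number, most of which encode proteins with C2H2 zinc fingers. They were chosen by name and by their mean level from a table of FPKM values (fragments per kilobase of transcript, scaled to the mapped reads of each library), as the entries whose name is Zfp followed by a number alone and whose mean over the 12 libraries was at least 2 FPKM. This gave 223 of the 23352 gene entries, out of 331 entries with such a name. The members were selected on the mean FPKM, so their mean levels are given as a description, as is any difference between groups that carried a gene over that limit. In 14 genes the mean of at least 1 group was under 2 FPKM, and the main counts are also given for the 209 genes with every group mean at 2 FPKM or more, a restriction added after the data were seen.

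The study asked what neuronal N40K does in mouse brain, as far as its title says; N40K is a truncated U1-70K, the RNA-binding protein of the U1 splicing particle, and has been tied to Alzheimer's disease. Hippocampus of C57BL/6J mice was used throughout. N40K transgenic mice of the line Tg396, in which a modified CaMKIIa promoter drives the fragment in neurons, were compared, at 3 and 12 months of age, with littermates that lack the transgene (wild type). Each of the 4 groups holds 3 libraries of poly-A RNA, and the transgenic groups all come from the same line. The labels do not say that each library came from a separate mouse, so p-values measure the spread between these libraries, which may be technical. The extraction text of the labels speaks of tumor samples, whereas every tissue label reads hippocampus.

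A C2H2 finger is a short loop held by a zinc ion between a pair of cysteines and a pair of histidines, and arrays of such fingers read DNA sequence. Many Zfp genes also encode a KRAB box, which recruits the corepressor KAP1 (Trim28) and through it histone methyltransferases, deacetylases and heterochromatin proteins, and these are known for silencing transposable elements and for keeping imprints. Other Zfp proteins bind RNA, act at the ribosome or hold no C2H2 finger at all. KRAB zinc finger genes lie in clusters along the mouse chromosomes.

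The defining element is shown for 3 genes that rose in N40K hippocampus and have an intact KRAB pattern, as the first finger of the longest coding sequence in GENCODE M21, read 5′ to 3′, with the codons of the zinc-binding cysteines and histidines in capitals. The fingers span coding bases 646 to 708 in Zfp948, 310 to 372 in Zfp930 and 511 to 573 in Zfp661.
Zfp948 finger: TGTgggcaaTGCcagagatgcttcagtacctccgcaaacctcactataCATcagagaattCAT
Zfp930 finger: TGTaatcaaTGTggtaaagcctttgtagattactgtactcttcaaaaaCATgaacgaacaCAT
Zfp661 finger: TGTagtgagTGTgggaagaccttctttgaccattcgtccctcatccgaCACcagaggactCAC
A search for the finger pattern in the coding sequences of 221 of the 223 genes found at least 1 finger in 214 of them, with a median of 10 and a maximum of 36 in Zfp142. The 7 genes without a match were Zfp259, Zfp330, Zfp365, Zfp703, Zfp707, Zfp839 and Zfp935. A KRAB pattern was found in 82 genes and a SCAN pattern in 6, and a missing match says only that this pattern is not in that coding sequence. The genes lie on 20 chromosomes, 59 of them on chromosome 7 and 25 on chromosome 17.

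Promoter windows from RefSeq (GRCm38.p6), from 250 bases before to 50 bases after the annotated start, are shown for the gene with the largest rise, for another KRAB gene that rose and for the gene with the largest fall averaged over both ages, with CG dinucleotides in capitals. They are Zfp948 at chr17:21566728-21567027 on the plus strand with 10 CG, Zfp661 at chr2:127587045-127587344 on the minus strand with 18 CG, and Zfp330 at chr8:82774096-82774395 on the minus strand with 15 CG.
Zfp948 promoter window: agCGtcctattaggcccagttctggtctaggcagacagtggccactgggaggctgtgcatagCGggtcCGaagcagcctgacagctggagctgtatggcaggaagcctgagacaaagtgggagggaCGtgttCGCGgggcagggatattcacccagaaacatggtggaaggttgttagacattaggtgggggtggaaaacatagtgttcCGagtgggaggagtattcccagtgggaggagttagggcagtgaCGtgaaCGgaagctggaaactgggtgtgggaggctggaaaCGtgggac
Zfp661 promoter window: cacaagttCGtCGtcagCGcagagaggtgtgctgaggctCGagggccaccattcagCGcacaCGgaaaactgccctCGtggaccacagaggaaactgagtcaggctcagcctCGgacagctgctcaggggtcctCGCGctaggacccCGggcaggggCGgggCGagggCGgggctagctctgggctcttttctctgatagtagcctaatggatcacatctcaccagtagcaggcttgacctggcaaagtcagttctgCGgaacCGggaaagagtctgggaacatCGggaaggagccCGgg
Zfp330 promoter window: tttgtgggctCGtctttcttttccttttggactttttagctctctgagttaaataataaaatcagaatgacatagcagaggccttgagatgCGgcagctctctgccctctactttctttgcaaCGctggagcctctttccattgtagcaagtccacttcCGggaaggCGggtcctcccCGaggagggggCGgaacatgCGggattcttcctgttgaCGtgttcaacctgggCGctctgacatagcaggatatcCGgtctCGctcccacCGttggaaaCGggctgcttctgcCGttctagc
Of the 185 Zfp genes with such a window, 76.2% had at least 10 CG in it, against 43.9% of the 27025 genes with a window. Counting either strand, CCGGAAG, a core of ETS family sites, was found in 18.9% of the Zfp windows and 9.12% of all windows. AAGATGGCG, a YY1 site, was in 4.32% of the Zfp windows and 1.49% of all, CCAAT in 45.4% and 37.9%, and TATAAA in 7.57% and 14.2%. CCGGAAG and AAGATGGCG each contain a CG, and otherwise none of these strings holds another whole. Among the 64 Zfp genes with a window that were called higher in N40K hippocampus averaged over both ages, 9.38% held CCGGAAG, against 24.0% of the other 121, while at least 10 CG were found in 79.7% and 74.4%. These shares describe letters in a window and were not tested.

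Markers of hippocampal cells were present in every library, and none of the 5 markers in any of the lists for neurons, glia, vessels or choroid plexus was at 0. Snrnp70, the gene of U1-70K, stood at 173 ± 10.5 FPKM in wild type and 392 ± 13.1 in N40K hippocampus at 3 months and at 122 ± 23.0 and 294 ± 31.9 at 12 months (SD, n = 3), higher in every N40K library of an age. Xist, expressed from the inactive X chromosome of females, was at 14.6 and 13.5 FPKM in wild type libraries 2 and 3 and at 17.3 in N40K library 3 at 3 months, and at 0.112 or less in the other 9. Ttr, a choroid plexus gene, ranged from 25.2 to 5813 FPKM without following the groups. The summed level of the 5 neuron markers was 2185 to 2464 FPKM in wild type and 2027 to 2160 in N40K libraries at 3 months, and 2260 to 2364 and 2002 to 2083 at 12 months. The summed astrocyte markers were apart at 3 months, with 333 to 348 FPKM in wild type and 354 to 364 in N40K libraries. At 12 months the sums were apart for oligodendrocytes (1433 to 1553 and 1284 to 1374), their precursors (58.0 to 63.5 and 48.4 to 51.7) and endothelial and mural cells (46.6 to 48.7 and 53.0 to 56.7), and those of CA pyramidal neurons were apart at 3 months (194 to 207 and 176 to 191). Single markers did not all follow these sums. At 3 months 2 of the 5 CA pyramidal markers were higher in N40K hippocampus, and 2 were called lower in the limma test described below. The same counts held for the precursor markers at 12 months. All 5 astrocyte markers were higher at 3 months, but none was called, and no oligodendrocyte marker was called at 12 months. The part of these markers in the genotype differences below was not tested, and in bulk tissue fewer cells of a type and less RNA per cell cannot be told apart. The library names of the 3-month and the 12-month samples come from separate number series, so age and that numbering cannot be told apart. The table holds no read counts, but the commonest value above 0 among 1092 olfactory receptor genes, which mostly carry a read or none, places the depth of the libraries between 1 and 2.45 times that of the shallowest, N40K library 3 at 3 months.

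The Zfp genes were expressed at low to moderate levels. Their means over the 12 libraries ran from 2.04 to 70.2 FPKM with a median of 4.77 and quartiles of 3.35 and 7.60. Of the 223, 123 stayed under 5 FPKM, 38 reached 10 FPKM and 10 reached 20 FPKM. The highest was Zfp365, which encodes a DISC1-binding protein of neurons and has no C2H2 match, with 79.1, 67.6 and 67.1 FPKM in wild type and 64.2, 65.6 and 68.5 in N40K libraries at 3 months. At 12 months it stood at 78.8, 72.6 and 70.6 in wild type and 70.7, 72.2 and 65.0 in N40K libraries, and the genotypes overlapped at both ages. Zfp706 (43.1 FPKM on average), Zfp207 (40.6), Zfp523 (36.4) and Zfp445 (30.4) followed.

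At the lower edge, Zfp658 (2.04 FPKM) and Zfp433 (2.06) lay just inside the limit of 2 FPKM, and Zfp324 (1.97) and Zfp472 (1.95) just outside it. All 223 genes passed the filter on low values used for the tests, at least 1 FPKM in at least 3 libraries, and 200 of them were at 2 FPKM or more in every library. In Zfp369 the mean of a group was under 1 FPKM. Of the 108 Zfp-numbered entries under 2 FPKM, 60 passed the same filter.

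As a whole the Zfp genes were somewhat higher in N40K hippocampus at both ages. Each gene was expressed as its deviation in log2(FPKM + 1) from its own mean over the 12 libraries, and the deviations of the 223 genes were averaged per library. This average was -0.064, -0.025 and -0.022 in the wild type and 0.074, 0.081 and 0.035 in the N40K libraries at 3 months. It was -0.090, -0.050 and -0.030 in the wild type and 0.052, 0.028 and 0.012 in the N40K libraries at 12 months. Every N40K library lay above every wild type library of either age. Over all 13945 genes tested the same average ran from -0.0064 to 0.048 in wild type and from 0.036 to 0.056 in N40K libraries at 3 months, and from -0.060 to -0.034 and from -0.038 to 0.0054 at 12 months, where the genotypes overlapped.

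**Figure D1:**
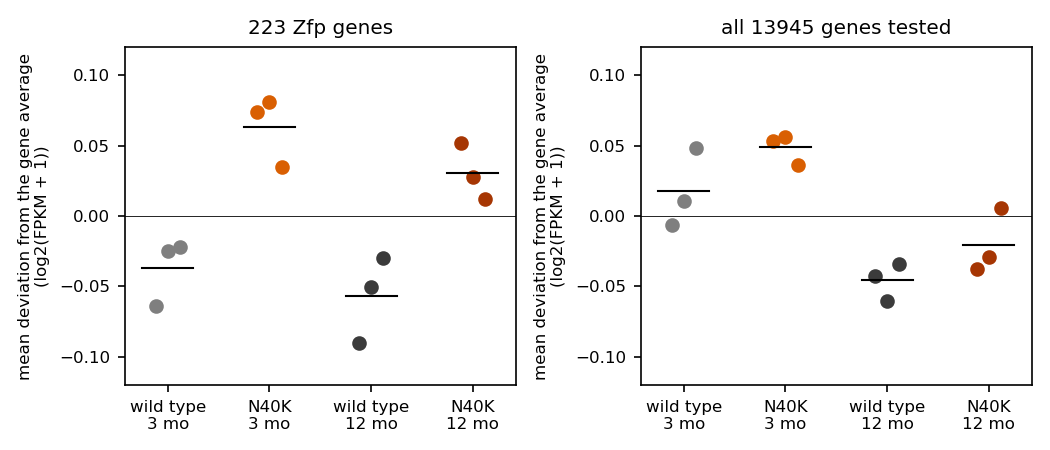
Mean deviation of each library from the gene averages, in log2(FPKM + 1), for the 223 Zfp genes (left) and all 13945 genes tested (right); points are libraries and lines are means of 3. The 6 N40K libraries sit at 0.012 to 0.081 for the Zfp genes, all above the 6 wild type libraries at -0.090 to -0.022.

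The sum of the FPKM values of the 223 genes showed the same order. It was 1530.5 ± 8.21 in wild type and 1633 ± 22.6 in N40K hippocampus at 3 months, and 1481 ± 21.1 and 1560.4 ± 24.7 at 12 months (SD, n = 3), and the genotypes did not overlap at either age. Counted gene by gene, 82, 91 and 103 Zfp genes were above their own mean in the wild type libraries at 3 months and 167, 164 and 136 in the N40K libraries. At 12 months these counts were 45, 87 and 88 in wild type and 126, 116 and 106 in N40K libraries.

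N40K was compared with wild type hippocampus at 3 months gene by gene with limma, adjusting over all 13945 genes and calling genes at an adjusted p under 0.05. Of the 223 Zfp genes, 40 rose and 5 fell, and 178 were not called. Among all genes 7.95% were called higher and 3.49% lower, against 17.9% and 2.24% of the Zfp genes. The median difference of the Zfp genes was 0.093 on the log2(FPKM + 1) scale, against 0.020 for all genes tested. Of the 209 genes with every group mean at 2 FPKM or more, 39 rose and 5 fell. The 3 N40K libraries lay above all 3 wild type libraries in 99 Zfp genes (20.4% of all genes) and below them in 13 (11.5% of all genes).

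The count of genes higher at 3 months dropped whenever a library of that age was left out. It was 25, 22 and 25 without wild type library 1, 2 or 3, 31 without N40K library 1, and 19 and 23 without N40K library 2 or 3. In the same order these were 11.2%, 9.87%, 11.2%, 13.9%, 8.52% and 10.3% of the Zfp genes. Over all genes the share called higher dropped as well, from 7.95% to 5.11%, 4.15%, 5.52%, 6.81%, 4.52% and 4.5%. Without the 3 libraries that carry Xist, which leaves 1 wild type and 2 N40K libraries at 3 months and lends the lone library the spread of the other groups, 2 Zfp genes remained called higher, Zfp948 and Zfp930, and 0.753% of all genes. With Xist as a covariate in all 12 libraries 29 were called higher and 4 lower. These 29 were 13% of the Zfp genes, beside 5.7% of all genes called higher.

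At 12 months 45 Zfp genes rose in N40K hippocampus and 5 fell, with 173 not called. Among all genes 11.2% were called higher and 7.71% lower, against 20.2% and 2.24% of the Zfp genes, and the medians were 0.082 and 0.0066. Of the 209 genes with every group mean at 2 FPKM or more, 41 rose and 5 fell. The N40K libraries lay wholly above the wild type libraries in 89 Zfp genes (21.3% of all genes) and wholly below them in 17 (17.5% of all genes). Leaving out N40K library 1 or 2 of this age reduced the genes called higher to 25 and 23. These were 11.2% and 10.3% of the Zfp genes, beside 6.2% and 6.34% of all genes. Calls to the higher side made up 90% of the Zfp calls, and 75.8% after quantile normalization, with 25 genes higher and 8 lower. Over all genes this share went from 59.2% to 51.6%. After quantile normalization 11.2% of the Zfp genes and 8.89% of all genes were called higher, and the medians were 0.019 and -0.013.

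Averaged over both ages 75 Zfp genes rose and 8 fell, with 140 not called. Of all genes 25% were called in this comparison, 15.5% higher and 9.54% lower, whereas 33.6% of the Zfp genes were called higher and 3.59% lower. The median difference was 0.093 for the Zfp genes and 0.014 for all genes. The share of calls on the higher side was 90.4%, and 73.7% after quantile normalization, with 42 genes higher and 15 lower, while over all genes it went from 61.9% to 49.8%. In that refit 18.8% of the Zfp genes and 12.1% of all genes were called higher, with medians of 0.044 and -0.012. Of the 209 genes with every group mean at 2 FPKM or more, 69 rose and 8 fell. Most changes were small: the called differences had a median size of 0.20 on the log2(FPKM + 1) scale, where the median standard error over the 223 genes was 0.0435, and 3 exceeded 0.5.

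The calls of the 2 ages overlapped. Of the Zfp genes, 23 were called higher at both ages, as were 4.32% of all genes, and 2 were called lower at both, as were 2.24% of all genes. Another 17 were called higher at 3 months alone and 22 at 12 months alone, and none was called in opposite directions. In 55 genes the N40K libraries lay above the wild type libraries at both ages (10.3% of all genes) and in 5 below them at both (5.78% of all genes). The 23 genes were, by decreasing difference averaged over the ages, Zfp948, Zfp930, Zfp433, Zfp661, Zfp672, Zfp866, Zfp40, Zfp655, Zfp799, Zfp704, Zfp386, Zfp865, Zfp160, Zfp697, Zfp414, Zfp383, Zfp810, Zfp142, Zfp629, Zfp410, Zfp1, Zfp846 and Zfp362. Exons of Zfp866, Zfp704, Zfp865, Zfp697 and Zfp142 overlap those of another gene, and Zfp433 and Zfp414 share over 20% of their 50-base words with another gene, so these are uncertain.

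**Figure D2:**
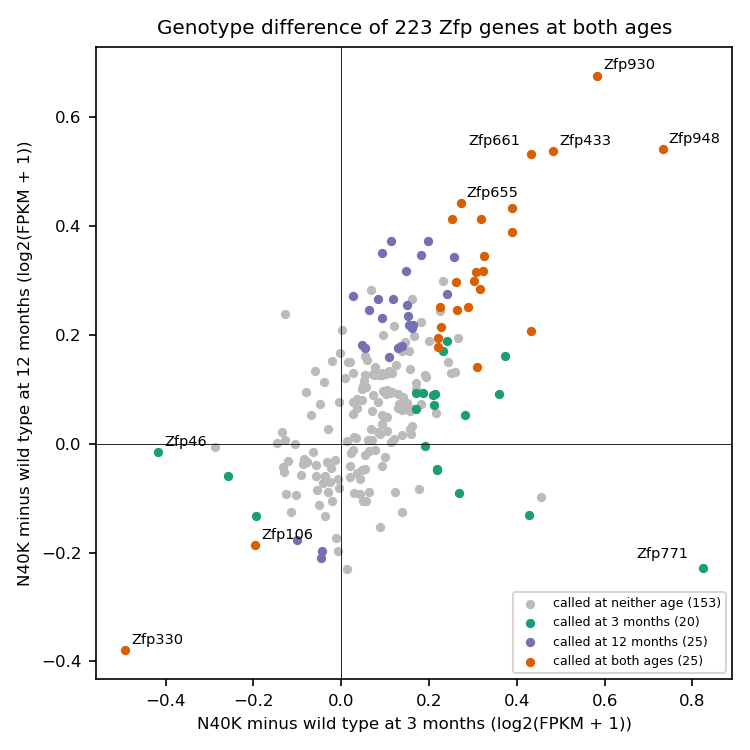
Difference between N40K and wild type hippocampus in log2(FPKM + 1) at 3 months (horizontal axis) and 12 months (vertical axis), with a point for each of the 223 Zfp genes coloured by where limma called it. Most of the 25 genes called at both ages lie in the upper right, with Zfp330 and Zfp106 in the lower left, and Zfp771 stands apart at the right.

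Zfp948, a KRAB gene with 15 fingers on chromosome 17 whose first finger is printed above, had the largest rise averaged over the ages. It stood at 4.52, 5.37 and 5.58 FPKM in wild type and 8.99, 8.96 and 9.65 FPKM in N40K libraries at 3 months. At 12 months it stood at 3.83, 4.08 and 4.27 FPKM in wild type and 6.65, 6.60 and 5.87 FPKM in N40K libraries. Every N40K library exceeded all 6 wild type libraries, by 1.78-fold on average at 3 months and 1.57-fold at 12 months. The differences were 0.73 ± 0.07 and 0.54 ± 0.07 on the log2(FPKM + 1) scale (SE, n = 3 per group; limma, adjusted p = 0.000124 and 0.000703).

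Zfp930, a KRAB gene with 12 fingers on chromosome 8, rose by a similar amount. Wild type libraries held 3.19, 3.77 and 3.22 FPKM at 3 months, and N40K libraries 6.15, 5.44 and 5.16 FPKM. The 12-month values were 3.79, 4.28 and 3.92 FPKM in wild type and 6.78, 7.20 and 6.98 FPKM in N40K libraries. Every N40K library lay above all 6 wild type libraries, and the levels were higher in the older mice of both genotypes. The genotype difference was 0.58 ± 0.07 at 3 months and 0.68 ± 0.07 at 12 months (SE, n = 3 per group; limma, adjusted p = 0.000539 and 0.000162).

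Zfp661, the KRAB gene on chromosome 2 shown above, held 2.97, 3.24 and 2.96 FPKM in wild type and 4.60, 4.22 and 4.57 FPKM in N40K libraries at 3 months. At 12 months it held 2.44, 2.57 and 2.67 FPKM in wild type and 4.23, 4.36 and 3.88 FPKM in N40K libraries. The genotypes were apart at both ages, with differences of 0.43 ± 0.06 and 0.53 ± 0.06 (SE, n = 3 per group; limma, adjusted p = 0.00099 and 0.000209). Without the 3 libraries that carry Xist the 3-month difference was 0.45 with an adjusted p of 0.0792, where the lone wild type library left at that age was assumed to vary like the other groups.

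Zfp433 held 1.60, 1.68 and 1.47 FPKM in wild type and 2.33, 3.02 and 2.51 in N40K libraries at 3 months, and 1.37, 1.41 and 1.59 and 2.83, 2.48 and 2.39 FPKM at 12 months. All 6 wild type libraries were under 2 FPKM, so it met the limit only through the N40K libraries and its difference is a description. It is also uncertain, since 94.2% of its 50-base words also occur in the gene model Gm32687 and the counting of shared reads is not given in the sources used here. Zfp672, with 13 fingers, rose by 0.39 ± 0.08 at 3 months and 0.43 ± 0.08 at 12 months (limma, adjusted p = 0.0131 and 0.00568), from 5.36, 5.68 and 4.77 to 6.61, 6.88 and 8.17 FPKM and from 7.18, 6.27 and 7.57 to 9.35, 10.04 and 9.97 FPKM. Without N40K library 3 at 3 months its younger difference was 0.31, at an adjusted p of 0.0501. Of the genes outside the naming rule, Zfp866 rose by 0.39 ± 0.06 at both ages, but its exons overlap those of Atp13a1, so the reads of the pair may not have been separated.

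Zfp655, whose human counterpart binds the signalling protein Vav, was called at both ages. The values went from 2.89, 3.27 and 2.98 FPKM in wild type to 3.70, 4.28 and 3.70 in N40K libraries at 3 months, and from 2.30, 2.89 and 2.62 to 3.94, 3.92 and 3.79 at 12 months. The groups were apart at both ages, with differences of 0.27 ± 0.07 and 0.44 ± 0.07 (limma, adjusted p = 0.0331 and 0.00232). The 3-month call was lost under 11 of the 25 alternatives, among them the fits without wild type library 1 or 3 or N40K library 2 or 3 of that age and without N40K library 2 at 12 months.

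**Figure D3:**
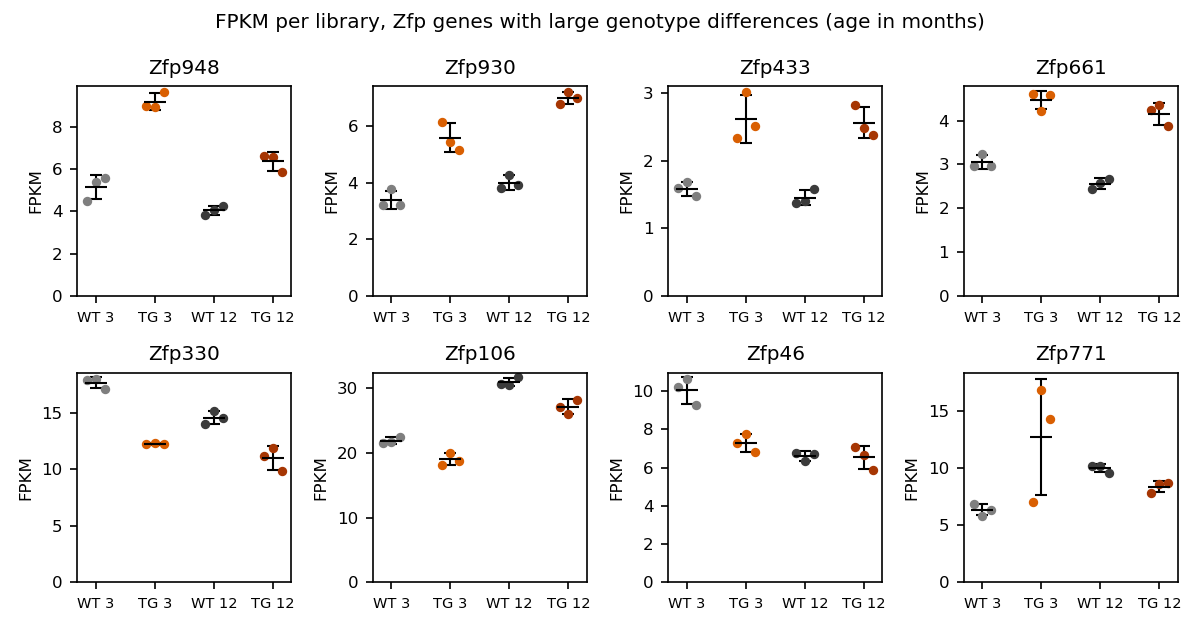
FPKM of 8 Zfp genes in each library (points), with the mean and SD of each group of 3 (WT, wild type; TG, N40K; age in months). The N40K libraries are apart from the wild type libraries at both ages in the upper row and in Zfp330 and Zfp106, and at 3 months alone in Zfp46, while the 3-month N40K libraries of Zfp771 spread from 7.05 to 16.8.

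Falls were few. Zfp330, a cysteine-rich nucleolar protein without a C2H2 match, had the largest, from 17.9, 18.0 and 17.1 FPKM to 12.2, 12.4 and 12.2 FPKM at 3 months and from 14.0, 15.1 and 14.5 to 11.2, 11.9 and 9.84 FPKM at 12 months. All N40K libraries lay below all wild type libraries, by 0.49 ± 0.06 and 0.38 ± 0.06 on the log2(FPKM + 1) scale (SE, n = 3 per group; limma, adjusted p = 0.00047 and 0.00167). Of its 50-base words 19.1% also occur in the gene model Gm7785. Without the libraries that carry Xist the 3-month difference was -0.51 at an adjusted p of 0.0648, under the same assumption for the lone wild type library.

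Zfp106, an RNA-binding protein needed for muscle and motor neurons, was the other gene called lower at both ages. It went from 21.6, 21.7 and 22.6 to 18.2, 20.1 and 18.8 FPKM at 3 months and from 30.7, 30.5 and 31.8 to 27.2, 26.0 and 28.3 FPKM at 12 months. The genotypes were apart at each age, by -0.20 ± 0.05 and -0.19 ± 0.05 (limma, adjusted p = 0.0185 and 0.0164). Leaving out N40K library 1 or 2 at 12 months ended the call there (adjusted p = 0.0533 and 0.0731), and leaving out wild type library 2 or 3 or N40K library 1 or 3 at 3 months ended it there (adjusted p = 0.0522, 0.0649, 0.0587 and 0.0638).

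Of the other falls, Zfp46 and Zfp207 were called at 3 months, and Zfp180 and Zfp637 at 12 months. Zfp46 held 10.2, 10.6 and 9.28 FPKM in wild type and 7.26, 7.74 and 6.80 in N40K libraries at 3 months, but 6.78, 6.33 and 6.69 and 7.08, 6.66 and 5.87 at 12 months, where they overlapped. Its difference was -0.42 ± 0.07 at 3 months (limma, adjusted p = 0.00373) and -0.02 ± 0.07 at 12 months (adjusted p = 0.905), and the change between the ages was 0.40 ± 0.10 with an adjusted p of 0.15. Zfp180 fell by 0.21 ± 0.04 at 12 months (limma, adjusted p = 0.00476), from 12.4, 13.0 and 12.8 to 10.8, 10.7 and 11.2 FPKM. Zfp637 fell by 0.18 ± 0.04 at that age (adjusted p = 0.0132), and without N40K library 2 its adjusted p was 0.0621. Zfp831 at 3 months (-0.19 ± 0.05, adjusted p = 0.0414) and Zfp770 at 12 months (-0.20 ± 0.06, adjusted p = 0.039) were called but lost the call under 16 and 13 of 25 alternatives. For Zfp831 these included the loss of any library but wild type library 2 at 12 months, and for Zfp770 the loss of wild type library 2 or N40K library 2 at 3 months, wild type library 2 or 3 at 12 months or any N40K library at 12 months. The 3-month fall of Zfp207 (-0.26 ± 0.06, adjusted p = 0.0144) was not called without wild type library 2 or 3 or N40K library 2 or 3 of that age (adjusted p = 0.0574, 0.0514, 0.0595 and 0.0561).

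The genotype differences at 12 and at 3 months were then compared with each other. None of the 223 Zfp genes was called in this test of limma, beside 0.0645% of all genes (0.0359% higher and 0.0287% lower), and 24 Zfp genes had an unadjusted p under 0.05. In 3 Zfp genes, as in 0.861% of all genes, the N40K libraries lay wholly above the wild type libraries at 3 months and wholly below them at 12 months. The median change was -0.0086 for the Zfp genes and -0.012 for all genes. Zfp771 had the largest size, with 6.82, 5.84 and 6.36 FPKM in wild type and 7.05, 16.8 and 14.2 in N40K libraries at 3 months and 10.2, 10.2 and 9.56 and 7.83, 8.60 and 8.67 FPKM at 12 months. At 3 months N40K libraries 2 and 3 stood far above library 1, which lay just over the wild type. The change was -1.05 ± 0.30 (limma, adjusted p = 0.185), and the difference at 3 months (0.82 ± 0.22, adjusted p = 0.0317) lost its call under 11 of 26 alternatives, among them the fits without any of the wild type libraries or without N40K library 2 or 3 of that age.

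Zfp428, which like Zfp580 is named here after its values were seen, also had its lowest N40K value at 3 months in library 1, with 10.5, 10.2 and 10.3 FPKM in wild type and 11.7, 15.4 and 15.9 in N40K libraries, and 11.3, 12.8 and 10.7 and 10.1, 10.7 and 10.6 FPKM at 12 months. Its change was -0.56 ± 0.13 (adjusted p = 0.142). Without N40K library 1 at 3 months, 3 Zfp genes were called lower in this comparison: Zfp771 (-1.40, adjusted p = 0.000573), Zfp428 (-0.69, adjusted p = 0.0063) and Zfp580 (-0.80, adjusted p = 0.00513). Zfp580 held 5.33, 9.48 and 9.43 FPKM in the 3-month N40K libraries and 5.09 to 5.68 in the wild type. These 3 genes have the highest GC contents of all the Zfp genes, 68.7% in Zfp771, 66.1% in Zfp580 and 64.4% in Zfp428. Their transcripts are short, with 1484, 693 and 1159 bases in the same order. The part of transcript composition in these changes was not tested.

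Zfp proteins that work on RNA or at the ribosome did not share a direction. Of 8 such genes, averaged over both ages, Zfp598 rose and Zfp207 and Zfp106 fell, beside 15.5% and 9.54% of all genes. Zfp598, the ubiquitin ligase that marks collided ribosomes, held 16.0, 14.8 and 17.2 FPKM in wild type and 20.3, 19.1 and 17.5 in N40K libraries at 3 months and 11.9, 8.92 and 12.2 and 13.7, 14.1 and 13.1 FPKM at 12 months, a difference of 0.27 ± 0.07 over both (limma, adjusted p = 0.0168). Zfp207, a spindle and kinetochore protein also called BuGZ, held 39.6, 42.1 and 42.8 and 36.4, 33.4 and 33.8 FPKM at 3 months. At 12 months it overlapped between the genotypes, with 46.6, 40.4 and 45.4 and 41.9, 41.4 and 43.4 FPKM, and averaged over the ages it fell by 0.16 ± 0.04 (adjusted p = 0.0136).

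Zfp593 and Zfp622, factors of large ribosomal subunit assembly, were not called over both ages (0.09 ± 0.05 and 0.01 ± 0.04). At 3 months Zfp593 was called higher (0.27 ± 0.07, adjusted p = 0.0387), a call lost under 15 of 25 alternatives, among them the fits without wild type library 1 or 2, N40K library 2 or 3, or any N40K library of 12 months. Exons of Zfp593 overlap those of E130218I03Rik. Zfp326, a subunit of a complex that couples transcription to splicing, was at -0.05 ± 0.04, Zfp346, which binds double-stranded RNA, at 0.05 ± 0.04, and Zfp830 at -0.08 ± 0.06, and none of them passed the test.

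Among 10 Zfp genes with known roles in neurons or glia, Zfp292, Zfp462 and Zfp711 were called higher averaged over the ages and none was called lower, beside 15.5% and 9.54% of all genes. Zfp292, a large nuclear protein linked to brain development, held 2.56, 2.85 and 2.70 FPKM in wild type and 3.22, 3.17 and 3.03 in N40K libraries at 3 months, and 3.83, 3.91 and 4.11 and 4.75, 4.74 and 4.73 FPKM at 12 months. Its libraries separated by genotype at each age, with a difference of 0.19 ± 0.03 (limma, adjusted p = 0.00272). Zfp462 (0.17 ± 0.05, adjusted p = 0.0409), a chromatin protein, and Zfp711 (0.20 ± 0.07, adjusted p = 0.04), an X-linked intellectual disability gene, lost the call under 15 and 17 of 24 alternatives. Any library but wild type 2 and N40K 2 at 3 months and wild type 3 and N40K 3 at 12 months ended the call of Zfp462 when left out, and any but wild type 2 at 3 months and wild type 2 and N40K 3 at 12 months ended that of Zfp711. Zfp365, Zfp335, Zfp423, Zfp536, Zfp191 (now Zfp24, needed for myelination) and the neurotrophin receptor partners Zfp110 and Zfp369 were not called for genotype.

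Among 12 Zfp genes known from chromatin or imprinting, Zfp445, Zfp410, Zfp644 and Zfp384 were called higher averaged over the ages and none was called lower, beside the same 15.5% and 9.54% of all genes. Zfp410, known as an activator of Chd4, held 7.23, 7.31 and 7.19 FPKM in wild type and 9.32, 8.87 and 9.45 in N40K libraries at 3 months and 6.58, 6.86 and 7.26 and 7.71, 7.52 and 7.91 FPKM at 12 months. The groups were apart at both ages, and the difference was 0.31 ± 0.04 at 3 months (limma, adjusted p = 0.00163) and 0.14 ± 0.04 at 12 months (adjusted p = 0.0473), where the call was lost under 19 of 26 alternatives, among them the loss of any library but wild type library 3 of that age. Zfp445, which guards imprints, overlapped at 3 months with 27.0, 29.2 and 26.8 and 29.3, 30.8 and 28.5 FPKM. At 12 months it was apart, with 30.7, 23.4 and 31.0 in wild type and 38.4, 35.9 and 34.2 FPKM in N40K libraries, a difference of 0.35 ± 0.09 (adjusted p = 0.0225) that lost its call without N40K library 1 or 2 of that age (adjusted p = 0.0876 and 0.0638). Its averaged call (0.22 ± 0.07, adjusted p = 0.0272) was lost without wild type library 1 or 3 or N40K library 2 at 3 months or N40K library 1 or 2 at 12 months (adjusted p of 0.054 to 0.0678).

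Zfp57, the other imprint guardian of the list, was not called for genotype (0.19 ± 0.08, adjusted p = 0.0887), nor was Zfp809, which silences retroviruses (0.01 ± 0.05). Zfp644, a partner of the histone methyltransferases Ehmt1 and Ehmt2, was at 0.13 ± 0.03 (adjusted p = 0.0124) and Zfp384, which shares 16.8% of its words with the gene model Gm11405, at 0.16 ± 0.04 (adjusted p = 0.0204). The ubiquitin ligase Zfp91, the SUMO ligase Zfp451 and Zfp148, Zfp281, Zfp609 and Zfp827 did not pass the test in any genotype comparison.

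The corepressor pathway that KRAB proteins use was counted from a list of 20 genes that passed the filter, of which 7 rose and none fell averaged over the ages, beside 15.5% and 9.54% of all genes. Trim28 itself, the protein that KRAB boxes bind, was not called. It held 51.5, 50.6 and 48.3 FPKM in wild type and 52.9, 51.0 and 53.0 in N40K libraries at 3 months, and 43.9, 39.7 and 42.9 and 39.6, 41.4 and 41.8 FPKM at 12 months, overlapping at each age (0.01 ± 0.03, adjusted p = 0.858). Those that rose were Setdb1 (0.19 ± 0.04), the methyltransferase that Trim28 recruits, its partner Atf7ip (0.26 ± 0.04), the remodellers Chd3 (0.19 ± 0.03) and Chd4 (0.15 ± 0.05), the deacetylase Hdac1 (0.14 ± 0.04), the DNA methyltransferase Dnmt3a (0.18 ± 0.06) and Ehmt1 (0.14 ± 0.03). Their adjusted p in limma ran from 0.000868 (Atf7ip) to 0.0466 (Dnmt3a). Atf7ip, Chd3 and Ehmt1 were called at 3 months, and Atf7ip, Chd4 and Dnmt3a at 12 months. The 3-month differences of Chd4 and Dnmt3a were 0.06 ± 0.07 and 0.02 ± 0.09 (adjusted p = 0.622 and 0.917). At 12 months Dnmt3a held 6.77, 4.94 and 6.25 FPKM in wild type and 8.29, 7.87 and 7.37 in N40K libraries. With age 2 of the 20 genes rose and 11 fell, beside 17.7% and 42.9% of all genes. In the decay pathway of tristetraprolin, a CCCH zinc finger protein, 0 of 18 genes rose and 2 fell, the deadenylase subunits Cnot2 (-0.08 ± 0.03) and Cnot10 (-0.17 ± 0.03).

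Rises were seen in genes with and without a KRAB pattern. Averaged over both ages, 33 of the 82 genes with the pattern rose and 0 fell, with a median of 0.108, beside 15.5% higher, 9.54% lower and a median of 0.014 over all genes. Of 107 genes without it and with at least 4 fingers, 33 rose and 4 fell, with a median of 0.090, and of 35 genes with under 4 fingers, 7 rose and 4 fell, with a median of 0.026. The last class shares 3 genes with the first. None of the 6 genes with a SCAN pattern was called. The classes were not tested against each other.

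Position in clusters was described in the same way, against the same shares of all genes. Of 103 Zfp genes that lie next to another Zfp-numbered gene, 28 rose and 2 fell, and of the other 120, 47 rose and 6 fell. Among 49 pairs of neighbours both genes rose in 2, a lone gene of the pair rose in 21, and neither rose in 26. On chromosome 7, 20 of 59 rose and 1 fell, and on chromosome 17, 9 of 25 rose and 0 fell. Genes whose reads may be shared with another gene were also left out of the count. Of the remaining 164 genes with no exon overlap in the table and at most 5% of their 50-base words in another gene, 52 rose and 7 fell, with a median of 0.090. Split into 4 equal classes from low to high, averaged over the ages, the genes gave 20, 17, 19 and 19 rises by GC content and 16, 21, 19 and 19 by level. By transcript length, from short to long, they gave 19, 16, 15 and 25 rises, with medians of 0.091, 0.091, 0.076 and 0.11. The GC classes gave 11, 7, 7 and 15 rises at 3 months (7.95% of all genes) and 13, 12, 10 and 10 at 12 months (11.2% of all genes). Their medians were 0.098, 0.064, 0.078 and 0.13 at 3 months and 0.097, 0.083, 0.091 and 0.068 at 12 months.

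Related families were counted in the same comparison, in which 15.5% of all genes were called higher and 9.54% lower. Averaged over the ages 7 of 38 Zbtb genes rose and 1 fell, 6 of 11 Zkscan genes rose and 0 fell, and 4 of 9 Zscan genes rose and 0 fell. Their medians were 0.075, 0.17 and 0.12 in the same order, beside 0.093 for the 223 Zfp genes and 0.014 for all genes. Of 22 Zfp genes with a letter after the number 3 rose and 1 fell, with a median of 0.016. Among the 60 Zfp-numbered genes under 2 FPKM 10 rose and 0 fell, with a median of 0.054.

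Age differences were called in both directions. Averaged over the genotypes 48 rose from 3 to 12 months and 86 fell, with 89 not called, while 17.7% of all genes were called higher and 42.9% lower (60.6% in all). The median was -0.058 for the Zfp genes and -0.092 for all genes. Of the 209 genes with every group mean at 2 FPKM or more, 42 rose and 81 fell. All 6 libraries of 12 months lay above all 6 of 3 months in 15 Zfp genes (8.86% of all genes) and below them in 32 (19.3% of all genes). Calls to the higher side were 35.8% of the Zfp calls as deposited. They were 58.3% with median-ratio scaling, with 74 genes higher and 53 lower, 47% with quantile normalization, and 46.5% and 45.8% after removing each library's trend with transcript length or GC content. Over all genes the share moved too, from 29.1% to 48.5%, 45.8%, 49.1% and 48.4% under these 4 settings in the same order. The 3 libraries that carry Xist are all of 3 months, so age and sex are partly confounded in this comparison. With Xist as a covariate 38 Zfp genes rose with age and 76 fell. The share of calls to the higher side was then 33.3% for the Zfp genes and 29.7% over all genes.

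Zfp369, the neurotrophin receptor partner NRIF2, met the limit of 2 FPKM only through its 12-month libraries, so its age difference is a description. At 3 months it held 0.552, 1.01 and 0.692 FPKM in wild type and 0.692, 0.981 and 0.820 in N40K libraries, and at 12 months 3.51, 3.93 and 4.52 and 5.71, 4.79 and 4.70 FPKM. Each 12-month library was over 3 FPKM and 5 of the 6 libraries of 3 months were under 1 FPKM, a difference of 1.62 ± 0.08 on the log2(FPKM + 1) scale (SE, n = 6 per age). Its relative Zfp110 stood at 4.09 to 5.09 FPKM at 3 months and 4.71 to 5.66 at 12 months, a difference of 0.14 ± 0.06 whose call (adjusted p = 0.0425) was lost under 12 of 24 alternatives, 9 of them the loss of a library: any but wild type library 3 at 3 months and library 1 of either genotype at 12 months.

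Zfp536, which restrains neuronal differentiation, also met the limit through 12 months alone. It held 1.08 to 1.50 FPKM in the 6 libraries of 3 months and 2.87 to 3.14 in those of 12 months, without overlap (a difference of 0.85 ± 0.05), and it was not called for genotype. Zfp382, Zfp398 and Zfp652 rose by 0.71 ± 0.06, 0.70 ± 0.06 and 0.66 ± 0.05, each with the ages apart, and Zfp398 had a group mean under 2 FPKM at 3 months. The exons of Zfp652 overlap those of Abi3 and Phospho1. Zfp106, which was lower in N40K hippocampus, rose with age by 0.48 ± 0.03 (adjusted p = 5.33e-07), and Zfp292 by 0.45 ± 0.03 (adjusted p = 1.65e-06).

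**Figure D4:**
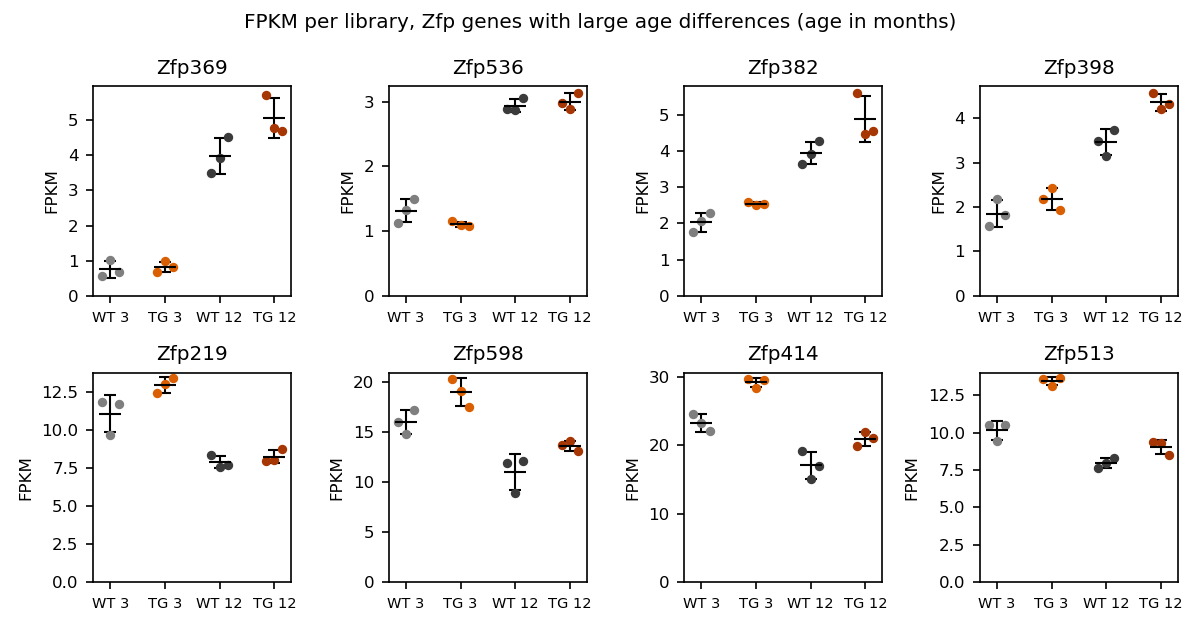
FPKM of 8 Zfp genes in each library (points), with the mean and SD of each group of 3 (WT, wild type; TG, N40K; age in months). The upper row shows genes with all 12-month libraries above the 3-month ones, such as Zfp369, and the lower row genes with all of them below, such as Zfp219.

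The largest falls with age were those of Zfp219, Zfp598, Zfp414, Zfp513 and Zfp658. Zfp219, a transcriptional repressor, went from 9.66 to 13.4 FPKM in the 6 libraries of 3 months to 7.61 to 8.75 in those of 12 months, a difference of -0.51 ± 0.05 (limma, adjusted p = 7.81e-06). Its exons overlap those of Arhgef40 and Tmem253. Zfp598 fell by 0.48 ± 0.07 and Zfp414 by 0.45 ± 0.05, and both rose in N40K hippocampus averaged over the ages. The separate rises of Zfp414 were not called without wild type library 2 or 3 or N40K library 3 at 3 months (adjusted p of 0.0567 to 0.0601), or without wild type library 2 or N40K library 2 or 3 at 12 months (adjusted p of 0.0501 to 0.0769). Zfp513, whose exons overlap those of Snx17, fell by 0.42 ± 0.04 and Zfp658, with 21 fingers, by 0.41 ± 0.05. In all 5 genes the ages were apart. Zfp658 met the limit only through its 3-month libraries. Of the most abundant genes Zfp523 fell by 0.38 ± 0.03 (adjusted p = 4.62e-06), from 38.1 to 43.7 FPKM down to 28.8 to 32.3, while Zfp365 and Zfp706 were not called.

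The age differences of Zfp genes moved with transcript composition. Of 4 equal classes, in that with the lowest GC content (35.3% to 42.0%) 17 of 56 rose with age and 10 fell, with a median of 0.061, and in that with the highest (53.1% to 68.7%) 4 rose and 39 fell, with a median of -0.20. In the class with the shortest transcripts, up to 2599 bases, 7 rose and 33 fell (median -0.15), and in the longest, from 4632 bases, 21 rose and 9 fell (median 0.070). Over all genes 17.7% were called higher and 42.9% lower with age, and these classes were not counted over all genes. The part of GC content and length in these calls was not tested beyond the refits without each trend, in which 55 rose and 65 fell for GC content and 53 rose and 61 fell for length. Over all genes the share of calls to the higher side went from 29.1% to 48.4% and 49.1% in the same refits.

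**Figure D5:**
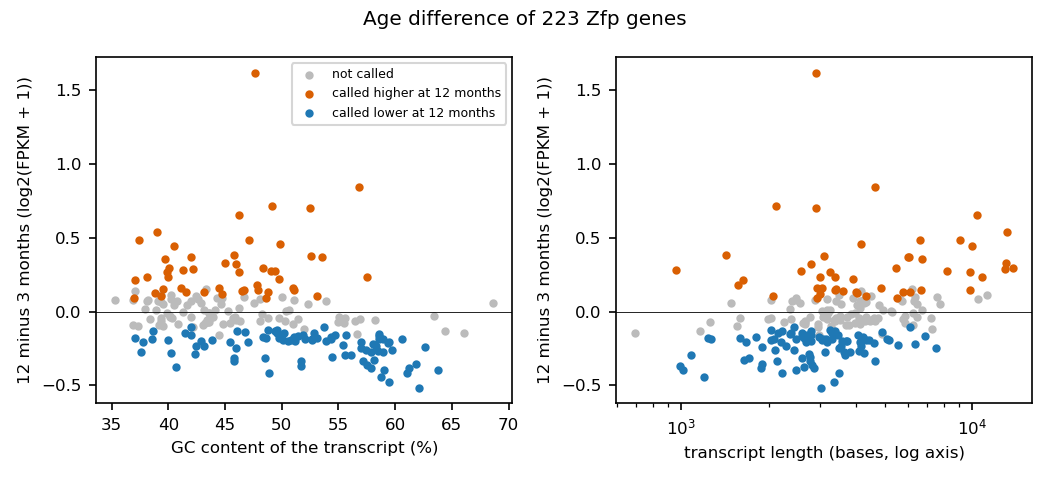
Difference between 12 and 3 months in log2(FPKM + 1) for each of the 223 Zfp genes against the GC content (left) and length (right, log axis) of its transcript, coloured by limma's call. Genes over 53% GC are mostly called lower at 12 months, and Zfp369 lies highest at 1.62.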

How the data were processed

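FPKM was the unit of the values the authors deposited, as a single table of all libraries. BWA, STAR, CASAVA and the mm9 build are named, without roles or versions, in the submitters' processing notes. For counting tool, annotation and strand the answer is not given in the sources used here. TruSeq libraries were read in pairs on a HiSeq instrument, per the labels. All 12 columns matched library names, and 0 were left unmapped. At most 0.0159% of values were identical between any pair of libraries.

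Values were tested as log2(FPKM + 1), computed from the deposited values, for the 13945 genes that reached 1 FPKM in 3 or more libraries. A limma model (limma 3.58.1, R 4.3.3) held a mean per group, with eBayes trend, two-sided tests and Benjamini-Hochberg adjustment over all genes. The log2(FPKM + 1) scale understates changes of low genes. The test was checked on simulated data. Sequences, lengths, GC content, overlaps and neighbours came from GENCODE M21 and RefSeq tables on another build than the files, matched by symbol (221 genes) or synonym (2 genes). The patterns (finger, KRAB, SCAN) had been planned for protein sequences and were searched as codons. Members, lists, tests and alternatives were chosen with earlier results of these data known. Genes are named if they had the 5 largest called rises or falls in a comparison, the 5 highest means, a place in a role list, or a mean nearest to 2 FPKM, and in pathway lists if called for genotype. The list of genes called higher at both ages and Zfp142, Zfp866, Zfp428, Zfp580 and Zfp933 were named after their values were seen. Alternatives were other pseudocounts (0.1, 0.5), no filter or a stricter one (mean of 5 FPKM or more), scaling by median ratio or quantiles, Xist as a covariate, robust eBayes, a replicate block, ages alone and each library left out. After seeing the data, Ttr as a covariate, length and GC trends (lowess, span 0.3), fits without Xist libraries, and counts without overlapping genes or without genes under 2 FPKM in a group were added. A stated number of alternatives leaves out those in which a gene was not tested.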

Additional observations from a re-analysis of the deposited data

Results flagged for a closer look

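In 3 Zfp genes all N40K libraries lay above all wild type libraries at 3 months and below all of them at 12 months, as in 0.861% of all genes. The changes of the genotype difference between the ages, in log2(FPKM + 1), were -1.05 for Zfp771 (-1.053), -0.27 for Zfp933 (-0.2666) and -0.26 for Zfp622 (-0.2637), with adjusted p of 0.185, 0.148 and 0.203 in limma, so none passed the test.

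Zfp933, a KRAB gene, held 4.31, 4.32 and 4.56 FPKM in wild type and 5.18, 5.56 and 5.10 in N40K libraries at 3 months. At 12 months it held 3.90, 3.83 and 3.87 FPKM in wild type and 3.76, 3.71 and 3.66 in N40K libraries. Zfp622 held 10.01, 9.96 and 10.03 FPKM and 10.3, 11.6 and 11.5 FPKM at 3 months, and 9.30, 10.4 and 8.95 FPKM and 8.89, 8.49 and 8.55 FPKM at 12 months. The gaps at 12 months were small in both genes.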

How the results depend on the processing

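Of 274 recounts of called Zfp genes, 233 stayed within 1.5 times the reported count and 41 did not; for these the cause was not tested. The genes higher at 3 months numbered 22 with a mean of at least 5 FPKM (where fewer genes were tested), 25 with quantile normalization, 24 with the age fitted alone and 2 without the Xist libraries (fewer libraries), and none was then called lower. At 12 months they were 25, 25 and 24 under the first 3 of these settings, with 8 lower under quantile normalization and 3 lower without the Xist libraries. Averaged over the ages they were 36 with a mean of at least 5 FPKM, 42 with quantile normalization (15 lower) and 38 without the Xist libraries (2 lower). With age 18 rose and 44 fell at a mean of at least 5 FPKM, and 74 rose and 53 fell with median-ratio scaling. Of the Zfp genes at 5 FPKM or more, 22%, 25% and 36% were called higher at 3 months, 12 months and averaged. Over all genes at that level the shares were 8.77%, 10.5% and 15.2%. Quantile normalization gave 11.2%, 11.2% and 18.8% of the Zfp genes, beside 5.59%, 8.89% and 12.1% of all genes. With the age fitted alone the share was 10.8% at each age, beside 6% and 6.58% of all genes. The counts reported above were 17.9%, 20.2% and 33.6% of the Zfp genes. Leaving out a library gave 19 to 51 higher and 2 to 6 lower at 3 months, 23 to 46 and 2 to 7 at 12 months, 57 to 75 and 7 to 11 averaged, 0 to 0 and 0 to 3 for the interaction, and 40 to 51 and 83 to 90 for age. Where a setting left 1 or 2 libraries in a group, these were assumed to vary like the other groups.

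A replicate block gave 13 higher and 2 lower at 3 months, 23 and 2 at 12 months, and 48 higher and 6 lower averaged. In this fit 5.83%, 10.3% and 21.5% of the Zfp genes were called higher, beside 3.29%, 6.41% and 11.1% of all genes. Its age difference was that of library 1 of each group alone, as the block was set within each age. The 17 rises and 27 falls with age in this fit are thus no count adjusted for replicate. They are among the recounts above. The labels share replicate numbers but do not say that a number marks a pair. Deviations of libraries with the same number gave r of 0.0569, -0.456 and -0.349 at 3 months and 0.0727, 0.00108 and 0.197 at 12 months. Libraries with unlike numbers gave r of -0.217 to 0.485 at 3 months and -0.216 to 0.181 at 12 months. With 3 libraries per group these values cannot decide whether the numbers pair the libraries.

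Of 2368 refits of named differences 2058 kept direction and call, 305 kept direction alone and 5 reversed, all of age. After removing the length trend these were Zfp831 (-0.14), Zfp637 (0.014), Zfp830 (0.0026) and Zfp148 (-0.023), and after removing the GC trend Zfp335 (0.035). In some refits the direction was fixed beforehand and the call alone could change. Robust eBayes, other filters and the age fitted alone leave a difference as it was, and a replicate block so leaves genotype differences. A genotype difference of a single age is also unchanged when a library of the other age is left out. The number of libraries and the unknown read counts limit small differences.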
